A study of Homo sapiens with 8 samples.

Results

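The endoplasmic reticulum (ER) stress response was described here through 32 genes, each found by its symbol among the features of the arrays. They comprised 15 chaperones and folding enzymes of the ER lumen, 5 genes of protein translocation and ER-associated degradation, the 3 stress sensors, 4 transcription factors and 5 effectors of the PERK-ATF4 branch. These genes were covered by 35 of the 29141 tested features, and the 29141 features named 20219 distinct gene symbols. EDEM1, P4HB and PDIA6 each had 2 features, and the brighter one was used.

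The cells were MIV-Luc, the luciferase-expressing form of MCF10CA1a, a metastatic basal-like carcinoma line of the MCF10A breast progression series. All cells carried luciferase and a stably integrated, puromycin-selected hairpin vector. The 4 groups were cells with a scrambled hairpin (shSCR) and cells with a hairpin against the IL-13 decoy receptor IL13Rα2 (shIL13Rα2, called knockdown here), each either mock-treated or exposed for 16 h to IL-13 at 20 ng/ml. There was 1 hairpin per line, and transduced cells were pooled rather than cloned. Each group had 2 arrays, and 8 arrays were used in all. The 2 were named A and B by the running number in their column headings, the lower number being A. Values are log2 levels made by the authors with RMA, which places all arrays on one scale. A level belongs to its own probes, so levels were compared between arrays for 1 gene and not between genes. Where the cells of a line are measured in bulk, fewer expressing cells and less RNA per cell cannot be told apart.

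Proteins that enter the secretory pathway fold in the ER with the help of lumenal chaperones, and unfolded protein there activates the sensors IRE1 (encoded by ERN1), PERK (EIF2AK3) and ATF6. IRE1 splices the XBP1 transcript, PERK phosphorylates eIF2 so that ATF4 is translated, and ATF6 is cut in the Golgi to release a transcription factor. The products raise chaperones, degradation factors and, through ATF4 and CHOP (DDIT3), genes of amino acid supply and cell death. Secretory and cancer cells are known to use this response, and ATF4 also answers to amino acid shortage and other signals outside the ER. An expression array reads transcript levels. It does not read XBP1 splicing, phosphorylation or cleavage of the sensors, or translation of ATF4.

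The transcription factors of the response are known to bind short promoter elements, which were looked for in RefSeq promoter sequences of build GRCh38.p14, from 250 bases before to 50 bases after each transcript start. Promoters were given for 31 of the 32 genes, and for 27305 genes in all. The ER stress element ERSE (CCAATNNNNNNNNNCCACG, either strand) was present in 7 of the 31 genes (22.6%), namely HSPA5, HSP90B1, CALR, CANX, PDIA6, CRELD2 and XBP1, and in 0.0916% of all genes. The element ERSE-II (ATTGGNCCACG) was present in SDF2L1, HYOU1 and HERPUD1 (9.68% of the genes against 0.0696% of all). The core of the XBP1 site (TGACGTGG) was found in HYOU1 alone among the genes described here (3.23% against 0.927% of all), where it overlapped an ERSE-II match. The ATF4-binding C/EBP-ATF element CARE (TGATGNAA) was found in HERPUD1, ATF3, CHAC1 and ASNS (12.9% against 4.46% of all). The genes were chosen as known stress genes, so these shares are a description, and a match is not evidence of binding in these cells. Stretches are shown for genes to which the results return: HSPA5 at chr9:125241381-125241419 on the minus strand, CALR at chr19:12938374-12938412 on the plus strand, SDF2L1 at chr22:21642104-21642134 on the plus strand, XBP1 at chr22:28800593-28800631 on the minus strand, CHAC1 at chr15:40953252-40953279 on the plus strand and ASNS at chr7:97872459-97872486 on the minus strand. All lie upstream of the transcript start and read 5′ to 3′ along the gene, with the match in capitals (ERSE in HSPA5, CALR and XBP1, ERSE-II in SDF2L1, CARE in CHAC1 and ASNS).
HSPA5: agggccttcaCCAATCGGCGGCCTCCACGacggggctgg
CALR: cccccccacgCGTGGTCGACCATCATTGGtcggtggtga
XBP1: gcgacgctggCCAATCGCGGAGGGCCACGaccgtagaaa
SDF2L1: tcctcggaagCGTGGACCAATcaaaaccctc
CHAC1: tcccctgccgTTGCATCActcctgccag
ASNS: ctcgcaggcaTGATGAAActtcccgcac

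IL13RA2, the gene targeted by the hairpin, served as a check of the labels. Its level was 8.09 and 8.07 in the mock-treated shSCR arrays and 6.34 and 6.52 in the mock-treated knockdown arrays. With IL-13 it was 9.33 and 9.36 in shSCR cells and 8.23 and 8.15 in knockdown cells. The knockdown was therefore visible at both treatments (limma adjusted p = 0.0105 without IL-13 and 0.0241 with it), and IL13RA2 was higher with IL-13 in both lines (limma adjusted p = 0.0135 and 0.00264). The median level of an array lay between 5.02 and 5.06, and Pearson's r across features was 0.992 to 0.993 between arrays of a group and 0.988 to 0.993 between groups. The median SD within a group was 0.143 over all features and 0.110 over the 32 genes. The cell type could be checked only roughly, since levels of different probes are not on one scale. All 8 basal epithelial markers had a mean above the median level of all values, for example KRT5 at 9.46 to 9.98. From array to array the list mean was 7.33 to 7.62 for the 8 basal markers, 6.84 to 7.13 for 6 luminal markers, 4.42 to 4.53 for 6 fibroblast markers, 4.21 to 4.46 for 5 leukocyte markers and 4.88 to 5.33 for 4 endothelial markers. The leukocyte marker PTPRC was at 2.27 to 2.71 and the endothelial markers CDH5, VWF and TEK had means below the median of all values, whereas the endothelial marker PECAM1 was above it, at 7.71 to 8.82. The luminal keratin KRT18 was at 9.32 to 9.60 in the shSCR arrays and 8.75 to 8.90 in the knockdown arrays, without overlap (limma adjusted p = 0.0454 for the averaged knockdown). KRT18 had 2 features, of which only the brighter was read, so whether the other shared this difference is not given. The luminal markers did not share a direction, as GATA3 was at 7.79 to 7.9994 in the shSCR arrays and 7.99 to 8.32 in the knockdown arrays (averaged difference 0.30, limma adjusted p = 0.221), and the part of these markers in the results below was not tested.

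No ER stress gene passed an adjusted p of 0.05 in any of 8 comparisons fitted with limma, which were IL-13 in each line, the knockdown at each treatment, the knockdown and IL-13 together (IL-13-treated knockdown cells minus mock-treated shSCR cells), both effects averaged over the other factor, and their interaction. These comparisons share arrays. The question was whether IL-13, knockdown of its decoy receptor, or both changed the transcripts of the response. In the comparison of both together, the IL13RA2 transcript itself was not lower (log2 difference 0.11, limma adjusted p = 0.815). The smallest adjusted p of any of the 32 genes was 0.193. Over all features the share past the adjusted threshold was also small, at 0.0618% for IL-13 in shSCR cells, 0.0686% for the knockdown without IL-13, 0.0618% for IL-13 in knockdown cells, 0.0549% for the knockdown in the presence of IL-13 and 0.285% for both together. For the averaged effects it was 0.233% for IL-13 and 0.446% for the knockdown, and for the interaction it was 0%.

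The intervals of the differences show which sizes of change the arrays left possible for 1 gene in 1 comparison. They carry no correction for the 32 genes or the 8 comparisons. In all comparisons but the interaction, the 95% confidence interval of each of the 32 genes lay within a 2-fold change in either direction. In the interaction this held for 31 genes, and the exception was DDIT3, with an upper bound of 1.05 on the log2 scale. For IL-13 averaged over both lines, every one of the 32 intervals also lay within a 1.5-fold change, and for the averaged knockdown this held for 29 genes. DDIT3, SESN2 and PPP1R15A had group means below the median of all values, 5.04. RMA compresses small signals, so changes of these transcripts could be larger than their intervals show. The median log2 difference of the 32 genes was -0.02 for averaged IL-13 and -0.02 for the averaged knockdown, beside 0.0084 and -0.0060 over all features. The mean level of the 32 genes in an array ranged from 7.52 to 7.62.

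**Figure D1:**
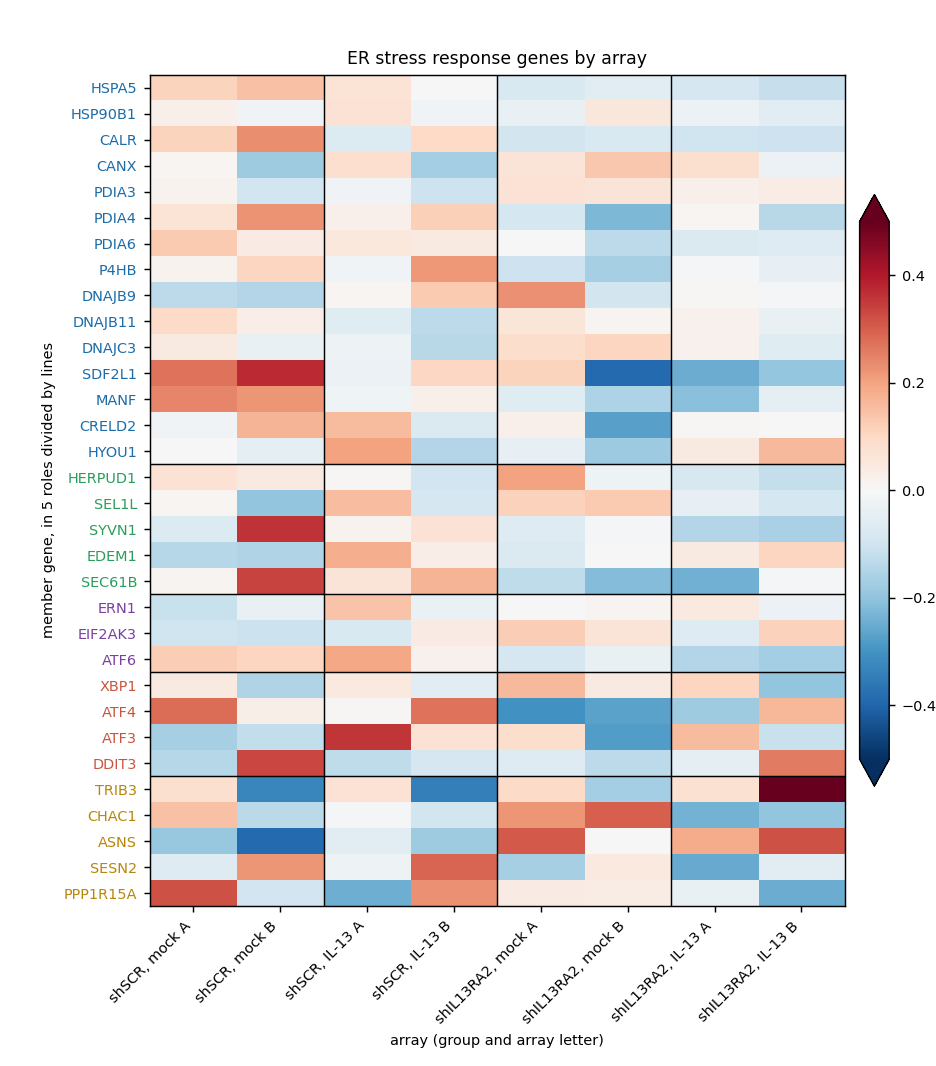
Heat map of the 32 genes (rows, in the order chaperones and folding enzymes, translocation and degradation, sensors, transcription factors, PERK-ATF4 effectors) in each of the 8 arrays (columns), with the log2 level minus the gene's mean over the 8 arrays in colour. HSPA5, PDIA4 and MANF are mostly red in the shSCR columns and mostly blue in the knockdown columns, and ASNS shows the opposite.

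**Figure D2:**
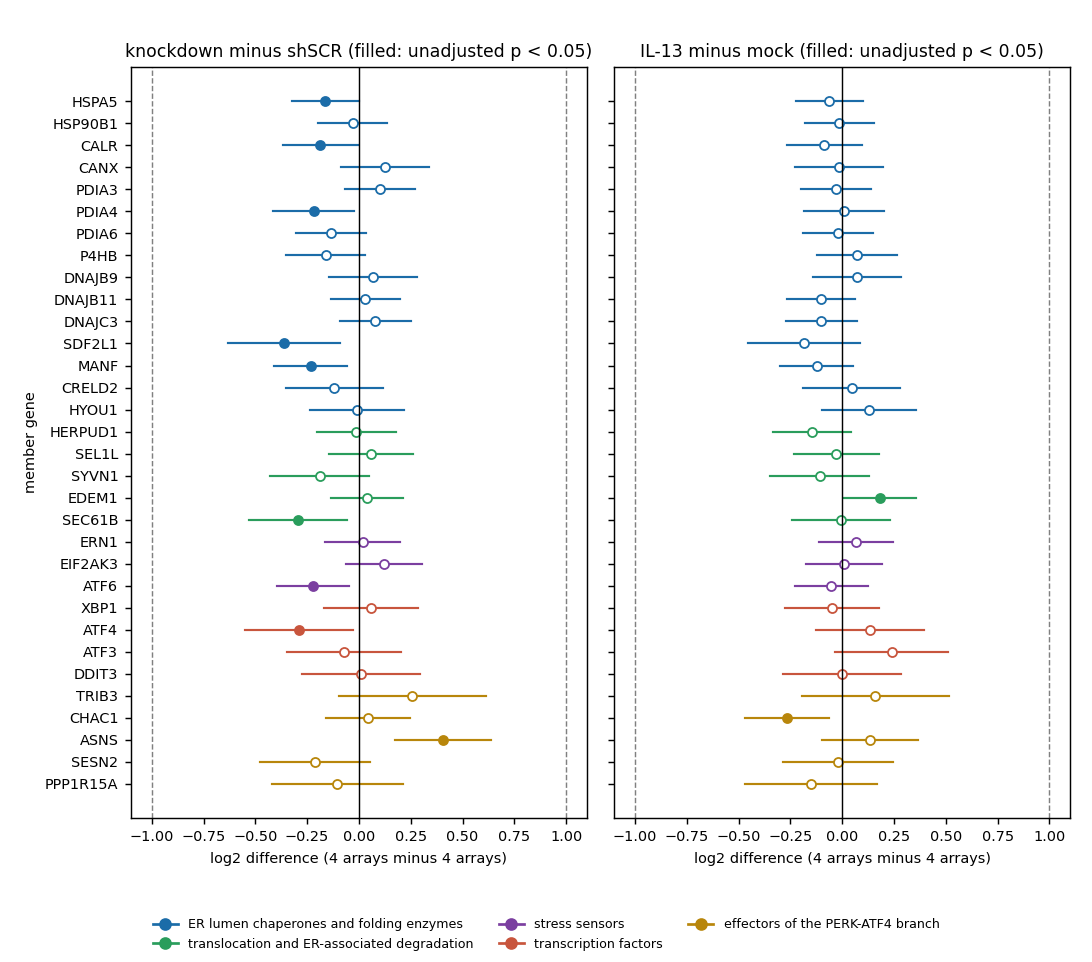
Log2 difference (points) with 95% confidence intervals (bars) of each of the 32 genes for the averaged knockdown (left) and for averaged IL-13 (right), coloured by role; filled points have an unadjusted limma p under 0.05, and dashed lines mark a 2-fold change. No interval reaches a dashed line, and 9 points are filled on the left against 2 on the right.

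Below the adjusted threshold, genes at a small unadjusted p were counted in each comparison, and these counts carry no correction for multiple tests. For the averaged knockdown, 9 of the 32 genes had an unadjusted p under 0.05, with 8 lower and 1 higher, beside 11.3% of all features (6.03% lower and 5.31% higher). Without IL-13 the knockdown gave 7 genes (6 lower and 1 higher) beside 9.51% of all features. Among IL-13-treated cells it gave 2 (1 in each direction) beside 7.07%. The knockdown and IL-13 together gave 5 (4 lower and 1 higher) beside 9.56%. IL-13 gave 1 gene in shSCR cells beside 6.79%, 1 in knockdown cells beside 6.93%, and 2 in the average beside 8.73%, while the interaction gave 1 beside 4.47%. The count of 8 lower genes depended on single arrays, and ranged from 2 to 8 when each array was left out in turn. It was 4 without mock-treated shSCR array B, 3 without IL-13-treated shSCR array B, 4 and 2 without mock-treated knockdown arrays A and B, and 3 and 5 without IL-13-treated knockdown arrays A and B. The genes counted also changed, with at most 6 of the first 8 in any refit. SDF2L1 was among them in each of the 8 refits and HSPA5 in 0. In these refits 4.33% to 6.52% of all features were counted lower.

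The 4 knockdown arrays lay entirely below the 4 shSCR arrays for 7 of the 32 genes, HSPA5, CALR, PDIA4, PDIA6, MANF, SEC61B and ATF6, beside 3.87% of all features. They lay entirely above for PDIA3 and ASNS, beside 3.26% of all features. The second PDIA6 feature, which was dimmer, overlapped between the lines, with an averaged knockdown difference of -0.09 (interval -0.31 to 0.12). The 4 IL-13 arrays lay entirely above the 4 mock arrays for EDEM1 alone (2.85% of all features) and entirely below for 0 of the 32 genes (1.93%).

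Among the lumenal chaperones, HSPA5 encodes BiP, the Hsp70 chaperone that holds the sensors inactive until unfolded protein draws it away. Its level was 10.30 and 10.33 in mock-treated shSCR cells, 10.26 and 10.19 in shSCR cells with IL-13, 10.11 and 10.14 in mock-treated knockdown cells and 10.10 and 10.07 in knockdown cells with IL-13. The groups of the 2 lines did not overlap, but the distance was small. The averaged knockdown difference was -0.16 on the log2 scale (95% confidence interval -0.33 to -0.0017, limma adjusted p = 0.439), and its unadjusted p was above 0.05 whichever array was left out. The averaged IL-13 difference was -0.06.

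Of the other 14 chaperones and folding enzymes, 4 had an unadjusted p under 0.05 for the averaged knockdown, and they are given in full although they were chosen after their values were seen. CALR encodes calreticulin, a calcium-binding lectin chaperone of glycoproteins, and its level was 9.92 and 10.05 (shSCR mock), 9.74 and 9.91 (shSCR IL-13), 9.72 and 9.74 (knockdown mock) and 9.71 and 9.71 (knockdown IL-13). PDIA4, a disulfide isomerase, was at 7.78 and 7.93, 7.73 and 7.83, 7.62 and 7.48, and 7.72 and 7.57 in the same order. For both genes all knockdown arrays were below all shSCR arrays, but the lines were barely separated. The highest knockdown and lowest shSCR values were 9.738 and 9.745 for CALR, and 7.716 and 7.734 for PDIA4. On average the knockdown arrays were lower by 0.19 for CALR (interval -0.37 to -0.0067, limma adjusted p = 0.428) and by 0.22 for PDIA4 (interval -0.41 to -0.03, limma adjusted p = 0.389). MANF, a secreted protein retained in the ER lumen and raised by ER stress, was at 9.11 and 9.08 (shSCR mock), 8.84 and 8.89 (shSCR IL-13), 8.81 and 8.71 (knockdown mock) and 8.66 and 8.82 (knockdown IL-13). SDF2L1, a lumenal partner of the J-domain co-chaperones, was at 6.03 and 6.13, 5.73 and 5.87, 5.87 and 5.37, and 5.51 and 5.57 in the same order. Both were highest in the 2 mock-treated shSCR arrays. The averaged knockdown difference was -0.23 for MANF (interval -0.41 to -0.06, limma adjusted p = 0.330) and -0.36 for SDF2L1 (interval -0.63 to -0.09, limma adjusted p = 0.324), and the lines overlapped for SDF2L1, where mock-treated knockdown array A lay above both shSCR arrays with IL-13.

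The remaining 10 genes of this role had an unadjusted p above 0.05 in all 8 comparisons, and they did not share a direction. PDIA3, the glycoprotein disulfide isomerase that works with calreticulin and calnexin, was at 10.42 to 10.54 in shSCR arrays and 10.55 to 10.60 in knockdown arrays. Its averaged knockdown difference was 0.10, opposite in sign to that of CALR. PDIA6 was at 9.72 to 9.81 in shSCR arrays and 9.55 to 9.68 in knockdown arrays. HSP90B1 (GRP94, the Hsp90 of the ER) kept within 12.52 to 12.64 over the 8 arrays, a range of 0.12. The lectin chaperone CANX (calnexin) ranged from 11.64 to 11.95 and the disulfide isomerase P4HB from 8.49 to 8.88. The J-domain co-chaperones of BiP ranged from 5.40 to 5.78 (DNAJB9), 10.66 to 10.88 (DNAJB11) and 9.24 to 9.49 (DNAJC3), CRELD2 from 5.39 to 5.83 and HYOU1, a nucleotide exchange factor of BiP, from 6.03 to 6.41. The lines overlapped for these 8 genes. Over the 15 genes of the role the averaged knockdown difference ranged from -0.36 to 0.13, with 10 below 0 and a median of -0.12, and the averaged IL-13 difference ranged from -0.18 to 0.13, also with 10 below 0. Few genes carried each promoter element, so the medians by element are a description only. They were taken over all 31 genes with a promoter and not over this role alone. The median averaged knockdown difference with and without a match was -0.12 and -0.01 for ERSE and -0.01 and -0.05 for ERSE-II. It was -0.0078 and -0.05 for the XBP1 core, which had 1 gene, and 0.02 and -0.10 for CARE. Genes with a match thus had the lower median for ERSE and the higher median for the other elements.

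In translocation and degradation, SEC61B encodes a subunit of the channel through which proteins enter the ER, and its levels were 8.47 and 8.80 (shSCR mock), 8.52 and 8.63 (shSCR IL-13), 8.33 and 8.24 (knockdown mock) and 8.22 and 8.45 (knockdown IL-13). The lines were barely separated, between mock-treated shSCR array A and IL-13-treated knockdown array B, and the averaged difference was -0.29 (interval -0.53 to -0.06, limma adjusted p = 0.359). EDEM1, which directs misfolded glycoproteins to degradation, was at 7.37 and 7.37 in mock-treated and 7.70 and 7.55 in IL-13-treated shSCR cells. In knockdown cells it was at 7.45 and 7.52 without and 7.56 and 7.63 with IL-13. All IL-13 arrays were above all mock arrays, with an averaged difference of 0.18 (interval 0.0095 to 0.36, limma adjusted p = 0.547). The second EDEM1 feature, which was dimmer, had an averaged IL-13 difference of -0.12 (interval -0.65 to 0.41). SEC61B and EDEM1 were chosen after their values were seen. HERPUD1, SEL1L and SYVN1, components of the ubiquitin ligase complex that acts on misfolded ER proteins, ranged from 7.01 to 7.33, 7.32 to 7.67 and 6.20 to 6.72 over the 8 arrays. They had averaged differences of -0.01, 0.06 and -0.19 for the knockdown and -0.15, -0.03 and -0.11 for IL-13, none at an unadjusted p under 0.05.

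Of the 3 sensors, ATF6 showed the only difference at an unadjusted p under 0.05. Its level was 9.38 and 9.37 (shSCR mock), 9.45 and 9.28 (shSCR IL-13), 9.18 and 9.22 (knockdown mock) and 9.11 and 9.09 (knockdown IL-13). The 4 knockdown arrays were all below the 4 shSCR arrays, by 0.22 on average (interval -0.40 to -0.05, limma adjusted p = 0.351). Among IL-13-treated cells the difference was -0.27 (limma adjusted p = 0.678). ERN1 was at 5.57 and 5.65 (shSCR mock), 5.83 and 5.65 (shSCR IL-13), 5.68 and 5.70 (knockdown mock) and 5.73 and 5.65 (knockdown IL-13). EIF2AK3 was at 7.34 and 7.34, 7.37 and 7.49, 7.57 and 7.51, and 7.38 and 7.56 in the same order. For both genes the 2 mock-treated shSCR arrays were the lowest of the 8, for ERN1 by a margin far below the spread within groups. The EIF2AK3 margin was also small, from 7.343 to 7.369 in the next array, beside a within-group SD of up to 0.127. For EIF2AK3 both mock-treated knockdown arrays also lay above every shSCR array, while the IL-13-treated knockdown arrays overlapped the shSCR range. The averaged knockdown difference was 0.02 for ERN1 (interval -0.16 to 0.20) and 0.12 for EIF2AK3 (interval -0.06 to 0.30), and neither had an unadjusted p under 0.05 in any comparison.

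Among the transcription factors, ATF4 was at 5.99 and 5.74 (shSCR mock), 5.72 and 5.98 (shSCR IL-13), 5.41 and 5.45 (knockdown mock) and 5.54 and 5.88 (knockdown IL-13). Both mock-treated knockdown arrays were below every shSCR array, while IL-13-treated knockdown array B lay within the shSCR range. The knockdown difference was -0.44 without IL-13 (interval -0.81 to -0.07, limma adjusted p = 0.463) and -0.29 in the average (limma adjusted p = 0.395). XBP1 was at 7.28 and 7.08, 7.28 and 7.18, 7.39 and 7.28, and 7.34 and 7.04 in the same order of groups, and ranged over 0.36 with all groups overlapping. ATF3, a stress-induced repressor, was at 5.16 and 5.20, 5.68 and 5.40, 5.41 and 5.04, and 5.48 and 5.21. DDIT3 (CHOP), the factor linked to cell death under long stress, was at 4.46 and 4.94, 4.48 and 4.52, 4.54 and 4.48, and 4.56 and 4.87. In DDIT3 the 2 mock-treated shSCR arrays differed from each other by more than any pair of group means. The averaged IL-13 difference was 0.24 for ATF3 (interval -0.04 to 0.51, limma adjusted p = 0.630) and 0.0006 for DDIT3.

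The effectors of the PERK-ATF4 branch held the smallest p of all 32 genes and did not share a direction. ASNS encodes asparagine synthetase, a classic ATF4 target, and its promoter stretch with the CARE match is printed above. Its level was 6.85 and 6.65 (shSCR mock), 6.98 and 6.86 (shSCR IL-13), 7.35 and 7.04 (knockdown mock) and 7.22 and 7.36 (knockdown IL-13). Each knockdown array was above each shSCR array. The averaged difference was 0.41 (interval 0.17 to 0.64), a 1.32-fold higher level, with a limma adjusted p of 0.193. When the prior variance followed the intensity and was fitted robustly, the same difference had an adjusted p of 0.0430, the only setting at which one of the 32 genes passed after adjustment. ATF4 itself had a difference of the opposite sign at the transcript level.

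CHAC1 encodes an enzyme that degrades glutathione, and it also carries a CARE match. Its level was 5.43 and 5.15 (shSCR mock), 5.28 and 5.19 (shSCR IL-13), 5.51 and 5.58 (knockdown mock) and 5.05 and 5.09 (knockdown IL-13). In knockdown cells both IL-13 arrays were below both mock arrays, by 0.47 (interval -0.76 to -0.19, limma adjusted p = 0.468). In shSCR cells the IL-13 difference was -0.06, and the average of both lines was -0.26 (limma adjusted p = 0.447). The test of the difference between the lines, the interaction, gave -0.42 (interval -0.82 to -0.01, limma adjusted p = 0.989). TRIB3, a pseudokinase raised by CHOP, was at 5.15 to 5.57 in shSCR arrays and 5.32 to 5.9996 in knockdown arrays, with its highest value in IL-13-treated knockdown array B. SESN2, a stress sensor of the mTORC1 pathway, and PPP1R15A (GADD34), which returns eIF2 to its unphosphorylated state, ranged from 4.27 to 4.81 and from 4.65 to 5.21 over the 8 arrays. Their averaged knockdown differences were -0.21 and -0.10, and neither they nor TRIB3 had an unadjusted p under 0.05 in any comparison.

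**Figure D3:**
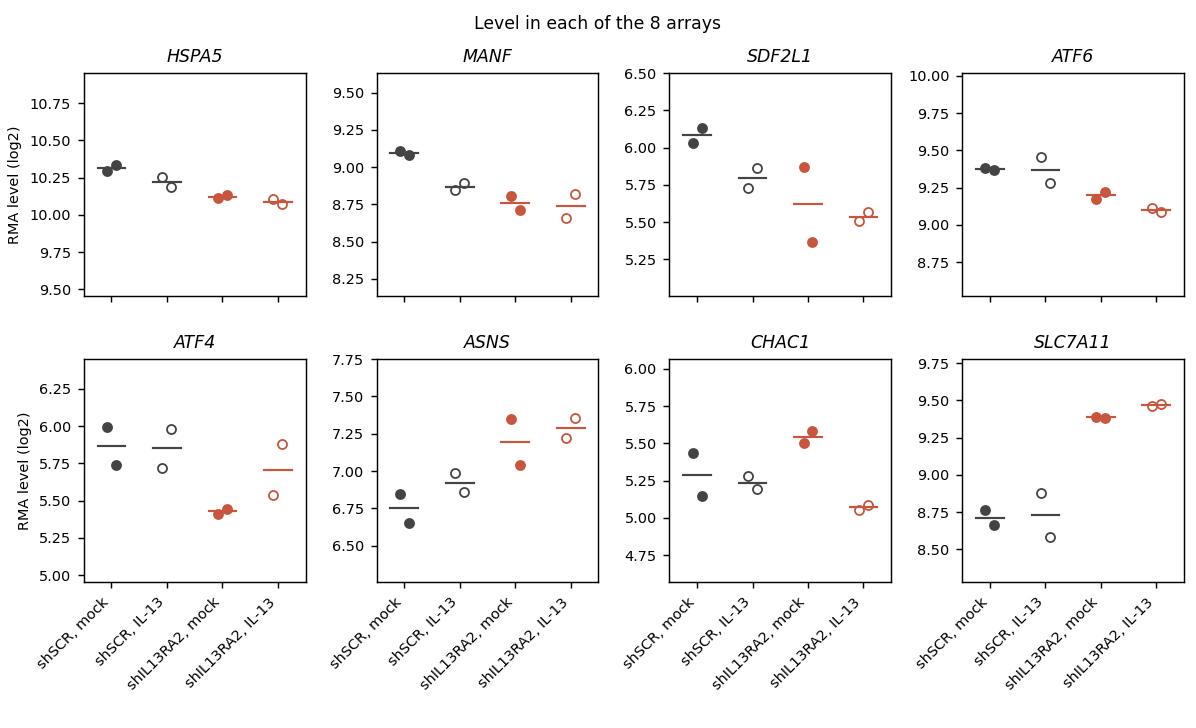
RMA log2 level of 7 of the 32 genes and of SLC7A11 in each of the 8 arrays (points; filled, mock; open, IL-13; grey, shSCR; red, knockdown), with a bar at each group mean; every panel spans the same 1.5 log2 units. HSPA5 and ATF6 are lower and ASNS and SLC7A11 higher in all 4 knockdown arrays, ATF4 and SDF2L1 overlap between the lines, and in knockdown cells CHAC1 is lower in both IL-13 arrays.

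Genes of the wider pathway were taken from 8 lists with 130 genes on the array, 15 of them under an older symbol. For the averaged knockdown, 1 of the 18 genes of ATF4-driven amino acid synthesis and transport passed the adjusted threshold, and 0 did so in the other 7 lists or in any other comparison. At an unadjusted limma p under 0.05, the averaged knockdown gave 3 higher and 0 lower of those 18 genes, 0 and 1 of 11 aminoacyl-tRNA synthetases, 2 and 1 of 15 other integrated stress response genes, 1 and 2 of 20 genes of the translocon, signal peptidase and glycosylation, 0 and 2 of 19 further degradation and folding genes, 0 and 2 of 16 genes of eIF2 kinases, phosphatases and site proteases, 0 and 2 of 14 heat shock genes, and 1 and 1 of 17 genes of Golgi and secretory transport. These shares stand beside 5.31% higher and 6.03% lower over all features. Median differences of the lists lay between -0.06 and 0.04.

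The gene that passed was SLC7A11, the cystine and glutamate antiporter that supplies cysteine for glutathione and a known ATF4 target. Its level was 8.76 and 8.66 (shSCR mock), 8.88 and 8.58 (shSCR IL-13), 9.39 and 9.38 (knockdown mock) and 9.46 and 9.47 (knockdown IL-13). It rose in all 4 knockdown arrays against all 4 shSCR arrays, by 0.71 on the log2 scale (interval 0.50 to 0.91, limma adjusted p = 0.0229). The difference was 0.67 without IL-13 and 0.74 with it, and the fold of the average was 1.63. The call needed nearly all arrays. Leaving out mock-treated shSCR array A or B, IL-13-treated shSCR array B, or any 1 of the 4 knockdown arrays gave adjusted p between 0.0879 and 0.117, and only leaving out IL-13-treated shSCR array A kept it (0.0470), while the difference stayed between 0.63 and 0.78. With the methods' analysis of variance and adjustment the p was 0.135.

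The other list genes with the smallest unadjusted p are given as values, since none passed the adjusted threshold. VLDLR, a lipoprotein receptor and known PERK target, had an averaged knockdown difference of 0.54 (limma adjusted p = 0.102), but its second feature had 0.0034, whereas for averaged IL-13 the 2 features had -0.40 and -0.38. NUPR1, a stress-induced nuclear protein, had an averaged IL-13 difference of -0.48 (interval -0.66 to -0.30, limma adjusted p = 0.0866), with -0.49 in shSCR cells and -0.47 in knockdown cells. RPN2 and DDOST, subunits of the oligosaccharyltransferase that glycosylates entering proteins, had averaged knockdown differences of -0.36 and -0.27, and EDEM3, a relative of EDEM1, had -0.63 (limma adjusted p = 0.196). SEC24D, of the COPII coat that leaves the ER, had 0.35, and HSPE1, the mitochondrial co-chaperonin held in the heat shock list, had -0.49 without IL-13. The ER-resident protein WFS1 had -0.38 and the eIF2 kinase EIF2AK2 had 0.47 for the knockdown and IL-13 together, and EIF2B2, a subunit of the eIF2 exchange factor, had -0.35 for the knockdown without IL-13. For averaged IL-13, the translocon subunit SEC61G had -0.26 and the retrieval receptor KDELR3 had -0.34. PSPH, the phosphatase of serine synthesis, had 2 features that disagreed, with -0.10 for the brighter and -1.12 for the dimmer in the knockdown without IL-13 (limma adjusted p = 0.897 and 0.241); it was named after its values were seen.

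**Figure D4:**
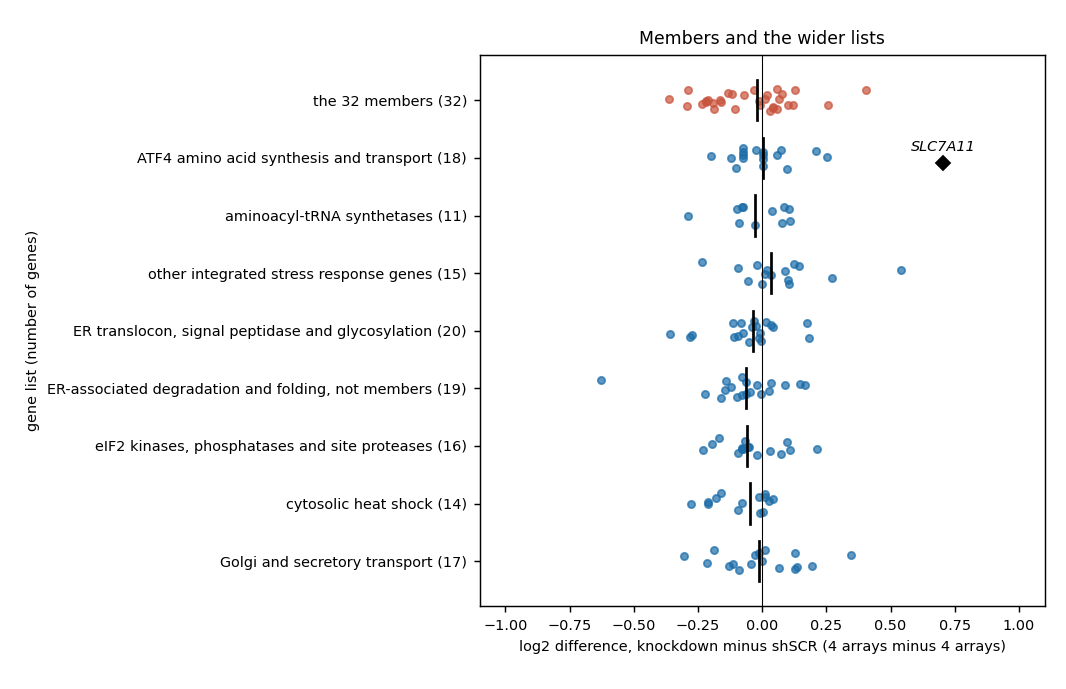
Averaged knockdown difference (log2, knockdown minus shSCR) of each gene (points) in the set of 32 genes and in the 8 wider lists, with the median as a vertical bar and vertical jitter for display; black diamonds passed an adjusted p of 0.05. SLC7A11 at 0.71 is the only diamond, and the 9 medians lie close to 0.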

How the data were processed

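Expression was measured on 8 Affymetrix arrays, 2 per group. The authors deposited log2 values per gene-level feature, made with RMA in Affymetrix Expression Console version 1 (background correction, quantile normalization, probe summary), which compresses small signals and fixes the array distributions, so a shift of all genes cannot be seen. The number of arrays limits the precision. Columns were placed in groups by construct and treatment in their headings. Of 33297 features, 4156 controls were left out. The 29141 others were fitted with limma 3.58.1 (R 4.3.3) over all 8 arrays with moderated variance, and p-values were Benjamini-Hochberg adjusted over all features. A gene with several features was read from the brightest. No further normalization or signal filter was applied.

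The 32 genes and all lists were chosen with earlier results of these data known. Values in every array are given for genes with an unadjusted p under 0.01, the sensors, XBP1, ATF4, ATF3, DDIT3 and HSPA5, and for CALR, PDIA4, MANF, SDF2L1, SEC61B and EDEM1, which were added after their values were seen, and the others by range. Up to 3 genes per wider list were named, by adjusted p under 0.05 or unadjusted p under 0.01. Of 132 listed pathway genes 130 were matched. The cell type marker lists were used as a check only. The fit was tested on simulated data. Alternatives were the methods' analysis of variance, no adjustment, limma on the 4 arrays compared, an intensity trend with a robust prior, leaving out the dimmest 30% of features, arrays shifted to one median, further quantile normalization, all features of a gene, and leaving out each array.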

Additional observations from a re-analysis of the deposited data

How the results depend on the processing

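With the adjustment kept, 0 of the 32 genes passed in any of the 8 comparisons when the dimmest 30% of features were left out, arrays were shifted to one median or quantile-normalized again, all features of a gene were used, only the 4 arrays compared were fitted (possible in 5 comparisons), or each array was left out. An intensity trend with a robust prior gave 1, ASNS in the averaged knockdown. Without adjustment, limma gave 1 gene for IL-13 in shSCR cells, 7 for the knockdown without IL-13, 1 for IL-13 in knockdown cells, 2 for the knockdown among IL-13-treated cells, 5 for both together, 2 for averaged IL-13, 9 for the averaged knockdown and 1 for the interaction. The methods' analysis of variance without adjustment gave 1, 4, 3, 2, 9, 4 and 8 in the same order, and 0 for the interaction. The count of 8 genes lower in the averaged knockdown at an unadjusted p was 2 to 8 as single arrays were left out, with 2 to 6 of the first 8 genes among them; this was examined after seeing the data. Signs were compared for values of single genes whose unadjusted p was not under 0.05 in the comparison. They changed in 154 of 1824 with 1 array left out, and the largest of these was 0.23 in size in the refit. Comparisons that did not use the array left out could not change sign. Under the other alternatives signs changed in 10 of 1512. All 10 came from shifting arrays to one median or normalizing again, as the other settings left the differences of a feature unchanged. No paired analysis was possible because the columns are headed by running numbers over all arrays, which give no replicate number. Of the 32 intervals of a comparison, 19 to 32 lay within a 1.5-fold change.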
